A study of Mus musculus with 8 samples.

Results

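The 67 genes described here encode the folding machinery that works beside HSP70: J proteins, BAG proteins, HSP90 with its cochaperone Chordc1, small heat shock proteins (small HSPs), the mitochondrial chaperonin, the cytosolic chaperonin CCT and prefoldin. They were chosen by symbol, without the endoplasmic reticulum genes Dnajb9 and Dnajc3, from 15288 genes with counts in 8 bulk RNA-seq libraries of IMCD cells, a mouse cell line from the inner medullary collecting duct of the kidney. All 67 were among the 14024 genes that passed the filter on low counts. The control group (replicates 1 to 4) was kept for 12 h in DMEM without FBS, and the NaCl group (replicates 5 to 8) was kept in the same way with 100 mmol NaCl, an amount the labels give without a volume. Both groups had first been grown in DMEM with 10% FBS to about 90% confluence. The series asks how collecting duct cells respond to hypertonic medium. The labels do not say whether the libraries of a group came from separate cultures, so the p-values measure the spread between these libraries, which may be technical.

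Chaperones bind unfolded protein and pass it on along a relay. J proteins stimulate the ATPase of HSP70, BAG proteins release its nucleotide, and HSP90 receives clients such as kinases and steroid receptors from it. Small HSPs hold unfolding protein without using ATP, prefoldin carries nascent actin and tubulin to CCT, and both chaperonins fold protein inside a closed ring. The renal inner medulla is the tissue in which urine is concentrated, its cells live in fluid of high and changing salt content, and the small HSP alpha B-crystallin (Cryab) is known to be abundant there.

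Library totals were 41.77 to 47.57 M counts in the control group and 35.29 to 42.39 M in the NaCl group. Over all 14024 genes, 34.1% passed an adjusted p of 0.05 (edgeR's quasi-likelihood test with Benjamini-Hochberg adjustment, used for every call below), 16.9% higher and 17.2% lower with NaCl. For 33.4% of genes the CPM values (counts scaled to a common library total) of the NaCl libraries lay all above or all below the control range. The median log2 fold change of all genes was 0.00287 and the median absolute value was 0.141. Markers of epithelium were found for 9 of 10 genes, with control means from 27.3 CPM for Epcam to 338.3 CPM for Krt7, but Cdh1, the epithelial cadherin, was at 0.195 CPM in control and 0.535 CPM in NaCl libraries. Of these 9, Cldn4 (44.0 to 77.3 CPM), Pax8 (159.6 to 231.4 CPM) and Cdh1 rose, and Tjp1 (270.2 to 250.4 CPM) fell. Of 12 markers of principal cells, the water-reabsorbing cells of the collecting duct, 11 were in the table, yet Aqp2 was at 0.024 and 0.305 CPM and Scnn1b at 0.246 and 0.0724 CPM. In the same list Tfcp2l1 (130.4 to 100.5 CPM), Gata3 and Scnn1g fell, and Avpr2 (0.108 to 0.646 CPM) and Slc14a2 (2.31 to 5.06 CPM) rose. Of 6 intercalated cell markers only Atp6v0d2 was in the table, and it fell from 1.84 to 0.326 CPM (log2 fold change -2.48, adjusted p = 7.08e-06). Of 5 endothelial markers 2 were in the table, with summed levels below 1 CPM. Proximal tubule markers (3 of 7 genes) summed to 162.2 to 204.96 CPM in control and 155.2 to 176.7 CPM in NaCl libraries, nearly all of it Lrp2 (185.1 and 161.9 CPM, not called). Summed fibroblast markers (6 of 7 genes, led by Col1a1) were 3128 to 3635 CPM in control and 2820 to 3254 CPM in NaCl libraries; Col1a1 (2492 to 2148 CPM) and Pdgfra (2.38 to 1.5 CPM) fell, Pdgfrb (37.5 to 61.1 CPM) rose, and Col1a2, Col3a1 and Dcn were not called. Summed leukocyte markers (Ptprc and Cd68, while Cd3e, Itgam and Adgre1 were not in the table) were 5.95 to 7.19 CPM in control and 14.9 to 15.3 CPM in NaCl libraries; Ptprc rose from 4.05 to 13.5 CPM (adjusted p = 5.91e-10), while Cd68 was at 2.41 and 1.69 CPM and was not called (adjusted p = 0.0573). The part of these marker differences in the results below was not tested, and in bulk libraries fewer cells of a type and less RNA per cell cannot be told apart.

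Among the chaperone genes, 9 were called higher with NaCl, 21 lower and 37 neither way, and the groups did not overlap for 31. As shares of the 67 these were 13.4% higher (16.9% of all genes tested), 31.3% lower (17.2%), 44.8% called either way (34.1%) and 46.3% without overlap (33.4%). Most changes were small: the median absolute log2 fold change of the 30 called members was 0.24, only 5 reached 0.5, and only Cryab reached a doubling. The direction differed by subfamily. Both HSP90 genes, both genes of the mitochondrial chaperonin and 8 of 9 CCT genes fell, the small HSPs moved both ways, and 27 of 36 J protein genes (75%) passed the test in neither direction, beside 65.9% of all genes tested. The differences between subfamilies were not themselves tested. Together the 67 genes held 1.11 to 1.32% of all counts.

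**Figure D1:**
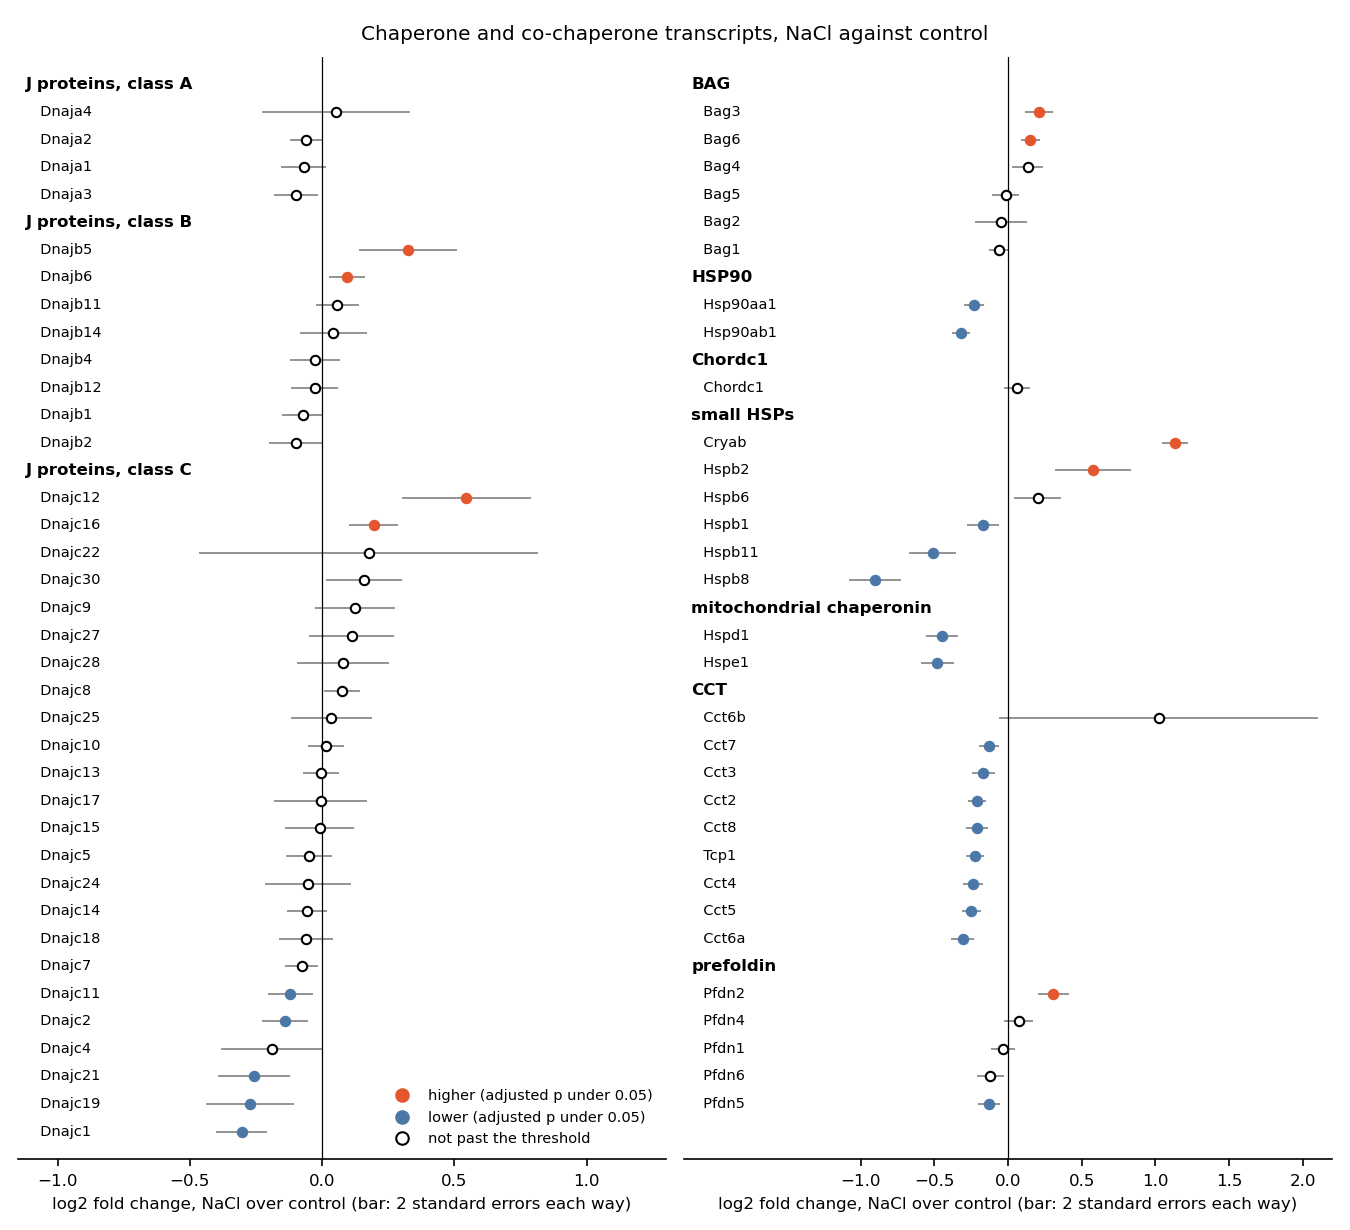
Log2 fold change (NaCl over control, n = 4 libraries per group) of all 67 genes, grouped by subfamily; bars are 2 standard errors each way, and filled points passed an adjusted p of 0.05 in edgeR's quasi-likelihood test (orange higher, blue lower). The 8 CCT subunits other than Cct6b lie between -0.31 and -0.13, while the J proteins scatter around 0.

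Many chaperone genes are targets of heat shock factor 1, which binds short units of GAA or TTC in alternating orientation, so the promoters were searched for these letters. RefSeq promoter windows (GRCm38.p6, 250 bases before to 50 after a start site) were matched for 53 of the 67 genes by symbol. Neither HSP90 gene had a window, so neither was searched. A window was found for 17 of 24 class C J protein genes (Dnajc), 4 of 6 small HSP genes and 8 of 9 CCT genes. It was found for 5 of 6 BAG and 4 of 5 prefoldin genes. A pair of facing units (GAANNTTC or TTCNNGAA, read on both strands) was present in 16 of the 53 genes (30.2%), beside 13.7% of the 10659 tested genes with a window. At least 3 alternating units (GAANNTTCNNGAA or TTCNNGAANNTTC) were present in 4 of the 53, namely Hspd1, Hspe1, Chordc1 and Dnajb6 (7.55%, beside 0.544%). The core of the element bound by NFAT5, the main transcription factor of the hypertonic response (TGGAAA or TTTCCA), was present in 13 of the 53 (24.5%, beside 19.8%). The longer matches contain the shorter pair, and a match is a string of letters, not a shown binding site. Of genes with a window, the pair was found in 7 of the 16 called lower, 2 of the 6 called higher and 7 of the 31 not called. The stretches below were chosen because they hold the longest runs or stand before genes described in detail; capitals mark the heat shock units with the bases between them, each sequence is given on the strand of its gene, and positions count from the RefSeq start site.
Hspe1, chr1:55088048-55088077, plus strand, positions -100 to -71: gccacggtccgTTCTAGAACCTTCCGGAAg
Chordc1, chr9:18292259-18292288, plus strand, positions -8 to 22: accgGAACGTTCGGGAAAATTCCTGAAgca
Dnajb6, chr5:29735840-29735869, plus strand, positions -58 to -29: cctcagctccgaGAATCTTCCGGAAcgcta
Hspb1, chr5:135887799-135887843, plus strand, positions -120 to -76: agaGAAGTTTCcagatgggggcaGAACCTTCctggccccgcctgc
Cct5, chr15:31601862-31601891, minus strand, positions -45 to -16: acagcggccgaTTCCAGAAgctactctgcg
Chordc1 holds 5 alternating units, Hspe1 4 and Dnajb6 3, Hspb1 holds 2 separate pairs and Cct5 a single pair. The Hspe1 run lies between the start sites of Hspe1 and Hspd1, which are transcribed away from each other, and is therefore also the Hspd1 match. GENCODE M21 places it in an exon of Hspd1. In the same annotation the Dnajb6 stretch overlaps exons of Dnajb6 and Gm5129, and the Chordc1 stretch overlaps an exon of Chordc1. The Cct5 stretch overlaps an exon of Fam173b, and the Hspb1 stretch overlaps no annotated exon. The genes shown did not share a direction: Hspe1, Hspd1, Hspb1 and Cct5 fell, Dnajb6 rose and Chordc1 was not called.

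The J proteins were the largest family. Of the 36 genes, 4 rose, 5 fell and 27 passed in neither direction, and 23 (63.9%) had a log2 fold change within 0.1 of 0, beside 38.4% of all genes tested. Their median was -0.02, and their summed level was 2906 ± 55.6 CPM (SD, n = 4) in control and 2847 ± 31.9 CPM (SD, n = 4) in NaCl libraries.

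None of the 4 class A genes, which encode J proteins built like bacterial DnaJ, was called. Dnaja1, a main cytosolic HSP40, measured 462.7, 455.6, 425.9 and 411.6 CPM in control replicates 1 to 4 and 429.9, 431.5, 418.7 and 392.5 CPM in NaCl replicates 5 to 8. The groups overlapped (log2 fold change -0.07, 2 standard errors from -0.15 to 0.01, adjusted p = 0.216). With the library number centred within its group as a covariate, Dnaja1 was called lower (adjusted p = 0.0298), and with a linear library number its sign turned (0.14, adjusted p = 0.0547). The mitochondrial Dnaja3 and the cytosolic Dnaja2 were lower in every NaCl library than in any control library, but were not called (log2 fold change -0.10, adjusted p = 0.078, and -0.06, adjusted p = 0.147).

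In class B, 2 of 8 genes rose and none fell (25% called, beside 34.1% of all genes). Dnajb1, the classical heat-inducible HSP40, was at 108.0, 111.8, 115.2 and 110.6 CPM in control and 102.0, 102.2, 107.8 and 111.6 CPM in NaCl libraries. It overlapped between the groups and was not called (log2 fold change -0.07, 2 standard errors from -0.15 to 0.00, adjusted p = 0.162). Dnajb5 rose from 11.7 ± 1.01 to 14.6 ± 1.63 CPM (SD, n = 4 each; log2 fold change 0.32, SE 0.093, adjusted p = 0.0123), and the lowest NaCl library (12.65 CPM) lay below the highest control library (12.87 CPM). Dnajb6, which restrains the aggregation of polyglutamine proteins, measured 123.7, 126.1, 123.8 and 121.4 CPM in control and 134.0, 128.5, 136.5 and 129.8 CPM in NaCl libraries. The groups did not overlap, the log2 fold change was 0.09 (SE 0.034, adjusted p = 0.0389), and the call was lost in 8 of 15 alternative fits, without control replicate 1, 2, 3 or 4 or NaCl replicate 5 or 7 among them (log2 fold change 0.08 to 0.10). The other 5 class B genes were not called: Dnajb11, a partner of the endoplasmic reticulum HSP70, had 0.06 (adjusted p = 0.285), Dnajb14 0.04, Dnajb4 and Dnajb12 -0.03 each, and Dnajb2 -0.10 (adjusted p = 0.156). Other genes of the GENCODE M21 annotation, pseudogenes and protein-coding genes together, share sequence at 98% identity with 47.3% of the Dnajb6 and 32.1% of the Dnaja1 transcript length, so reads of these genes could have been split or lost in counting.

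Class C is a mixed group of J proteins with dedicated tasks, and of its 24 genes 2 rose, 5 fell and 17 were not called (29.2% called, beside 34.1% of all genes). The highest was Dnajc12, a cochaperone of the aromatic amino acid hydroxylases. It measured 4.19, 4.48, 4.23 and 5.16 CPM in control and 5.91, 5.96, 6.81 and 7.62 CPM in NaCl libraries, with no overlap (log2 fold change 0.54, SE 0.122, adjusted p = 0.00233). Dnajc16 rose from 39.8 ± 1.44 to 45.6 ± 1.3 CPM (SD, n = 4 each; log2 fold change 0.19, SE 0.047, adjusted p = 0.00395).

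Class C genes that fell were Dnajc1, Dnajc21, Dnajc2, Dnajc19 and Dnajc11. Dnajc1, a J protein of the endoplasmic reticulum membrane, measured 54.3, 58.5, 52.1 and 54.4 CPM in control and 45.0, 42.2, 46.2 and 44.3 CPM in NaCl libraries. The groups were well apart (log2 fold change -0.30, SE 0.048, adjusted p = 1.22e-04). Dnajc21, a factor in the maturation of the large ribosomal subunit, fell from 65.9 ± 2.36 to 55.1 ± 6.44 CPM (SD, n = 4 each; log2 fold change -0.26, adjusted p = 0.00998). Dnajc2, which sits on ribosomes, fell by 9.29% (adjusted p = 0.0192), the mitochondrial import factor Dnajc19 fell by 17.3% (adjusted p = 0.0179) and the mitochondrial Dnajc11 fell by 8.02% (adjusted p = 0.0384). These last 3 were fragile: Dnajc2 lost its call without control replicate 2 (adjusted p = 0.0672) or NaCl replicate 8 (0.0583), Dnajc19 without NaCl replicate 7 (0.0635) or control replicate 2 (0.051) or 3 (0.0501), and Dnajc11 without control replicate 1, 2 or 3 or NaCl replicate 6 or 7 (0.0573 to 0.133). The number of class C genes called lower then ranged from 2 (without control replicate 2) to 5, and was 3 without control replicate 3 or NaCl replicate 7.

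The 17 class C genes without a call ranged from -0.19 for Dnajc4 to 0.18 for Dnajc22 in log2 fold change. Dnajc22 had 18 to 52 counts per library, so its interval was wide (2 standard errors from -0.46 to 0.82). Nearest to the threshold was Dnajc7, a scaffold between HSP70 and HSP90, at 152.5 ± 2.21 CPM in the control group and 144.5 ± 2.72 CPM with NaCl (SD, n = 4 each; -0.08, adjusted p = 0.0692). Dnajc5, which guards synaptic vesicle fusion proteins and is also found outside neurons, was at 206.1 ± 6.43 and 199.0 ± 13.3 CPM (SD, n = 4 each; -0.05, adjusted p = 0.411), and Dnajc10, a reductase partner of the endoplasmic reticulum HSP70, at 211.5 ± 5.82 and 213.6 ± 6.28 CPM (SD, n = 4 each; 0.01, adjusted p = 0.787).

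A second check bears on every subfamily. All control libraries have lower numbers than all NaCl libraries, so a linear term of this number beside the group changes the group difference, down for some genes and up for others. It assumes that a trend within the groups runs on from replicate 4 to replicate 5, which was not tested. In the fit with that term the J proteins Dnajb5, Dnajb6, Dnajc2, Dnajc11, Dnajc12, Dnajc16 and Dnajc19 lost their calls (adjusted p = 0.1 to 0.997), Dnajc1 and Dnajc21 kept theirs (adjusted p = 0.0216 and 1.81e-04), and Dnajb1 was newly called lower (-0.20, adjusted p = 0.0307). Dnajc12 came to 0.11, Dnajc19 to -0.00098, Dnajc2 to 0.0034, Dnajc11 to -0.03 and Dnajc21 to -0.52. Dnajb5 came to 0.27, Dnajb6 to 0.13 and Dnajc16 to 0.21, beside 0.32, 0.09 and 0.19 without that term. Library number and group cannot be fully told apart in this design.

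BAG proteins bind the ATPase domain of HSP70 and speed up nucleotide release. Of 6 genes, 2 rose and none fell, a share of 33.3% called that is near the 34.1% of all genes. Bag3, which works with the small HSP Hspb8 to send misfolded protein to autophagy, measured 60.1, 52.1, 56.1 and 54.8 CPM in control and 67.2, 63.5, 63.7 and 64.1 CPM in NaCl libraries. All NaCl libraries were above all control libraries (log2 fold change 0.21, SE 0.047, adjusted p = 0.00224). Bag6, part of the complex that captures stray membrane proteins in the cytosol, rose from 263.2 ± 6.84 to 292.3 ± 3.31 CPM (SD, n = 4 each; log2 fold change 0.15, SE 0.032, adjusted p = 0.00132). In the fit with the linear library number Bag3 kept its call (0.31, adjusted p = 0.0059) and Bag6 did not (0.11, adjusted p = 0.176).

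The other BAG genes were not called. Bag4 had a log2 fold change of 0.13 and overlapped between the groups (adjusted p = 0.0589; called at 0.0238 with the centred and 0.0443 with the linear library number, 0.0475 with DESeq2 and 0.0445 without control replicate 2). Bag1, an exchange factor that also reaches the proteasome, had -0.06 (adjusted p = 0.184), and Bag5 had -0.02 (adjusted p = 0.819). Bag2, which restrains the ubiquitin ligase CHIP, had -0.05 (adjusted p = 0.719), but its NaCl libraries spread from 38.6 CPM in replicate 5 to 52.3 CPM in replicate 7, and the linear library number turned this into a call (-0.44, adjusted p = 0.00356).

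The HSP90 genes had the highest levels per kilobase of exon among the 67, and both fell. Hsp90ab1, the constitutive beta form, measured 3666, 3580, 3481 and 3588 CPM in control and 2867, 2861, 2871 and 2887 CPM in NaCl libraries. The NaCl libraries lay close together and far below the lowest control library (log2 fold change -0.32, SE 0.030, a fall of 19.8%, adjusted p = 3.93e-07). Hsp90aa1, the stress-inducible alpha form, measured 1249, 1242, 1163 and 1167 CPM in control and 1025, 1031, 1038 and 1016 CPM in NaCl libraries. It too fell without overlap (log2 fold change -0.23, SE 0.033, a fall of 14.8%, adjusted p = 4.92e-05). Both calls held in all 15 alternative fits, the weakest being -0.15 (adjusted p = 0.0366) for Hsp90aa1 with the linear library number. Pseudogenes share 68.7% of the Hsp90aa1 transcript length, and no such sharing was found for Hsp90ab1.

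Per kilobase of exon, Hsp90ab1 stood 3.9 ± 0.109 times above Hsp90aa1 in control libraries and 3.66 ± 0.0445 times in NaCl libraries (SD, n = 4 each). Chordc1, whose product binds HSP90 and whose start site carries the longest run of heat shock units shown above, measured 76.0, 77.8, 72.8 and 72.0 CPM in control and 82.8, 76.1, 78.4 and 74.3 CPM in NaCl libraries. It overlapped between the groups and was not called (log2 fold change 0.06, 2 standard errors from -0.03 to 0.15, adjusted p = 0.298), except with the linear library number (0.21, adjusted p = 0.0353).

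The small HSPs were the subfamily with the widest range, with log2 fold changes from -0.90 to 1.14. Of the 6 genes, 2 rose (33.3%, beside 16.9% of all genes tested) and 3 fell (50%, beside 17.2%). Cryab, which encodes alpha B-crystallin, measured 108.6, 109.8, 115.8 and 109.4 CPM in control and 266.2, 246.3, 234.0 and 228.6 CPM in NaCl libraries. Every NaCl library was far above every control library, and the level was 2.2-fold higher (log2 fold change 1.14, SE 0.045, adjusted p = 1.08e-11). This was the highest fold change among the called members and held in all 15 alternative fits (1.09 to 1.27).

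Hspb2 lies head to head with Cryab on chromosome 9 (GRCm38, GENCODE M21): Hspb2 spans 50751078 to 50752354 on the minus strand and Cryab 50751325 to 50756636 on the plus strand, so the genes overlap by 1030 bases. Hspb2 measured 6.12, 5.90, 6.96 and 8.63 CPM in control and 8.43, 11.6, 10.95 and 10.2 CPM in NaCl libraries. It rose (log2 fold change 0.58, SE 0.128, adjusted p = 0.00226), although control replicate 4 was above NaCl replicate 5, and the call was lost with the linear library number (0.10, adjusted p = 0.782). Cryab exons cover 30.2% of the Hspb2 exon length, Cryab was 9.26 ± 1.48 times as high per kilobase in control libraries and 13.6 ± 2.80 times in NaCl libraries (SD, n = 4 each), and strandedness of the counting is not given in the sources used here. Reads of Hspb2 and of Cryab therefore cannot be told apart in the shared part.

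Hspb8, the HSP22 that pairs with Bag3, moved the opposite way. It measured 76.0, 72.2, 62.0 and 58.2 CPM in control and 38.0, 35.3, 38.1 and 32.2 CPM in NaCl libraries. The groups were far apart (log2 fold change -0.90, SE 0.087, a fall of 46.5%, adjusted p = 1.04e-05). All 15 alternative fits kept the call, with -0.49 (adjusted p = 2.94e-04) under the linear library number. Hspb11, also known as IFT25 and a subunit of the intraflagellar transport complex rather than a typical holdase, measured 13.8, 14.1, 14.9 and 15.3 CPM in control and 11.1, 9.86, 9.45 and 10.4 CPM in NaCl libraries. It fell without overlap, and all 15 alternative fits kept the call (log2 fold change -0.51, SE 0.080, adjusted p = 1.01e-04).

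Hspb1, the small HSP with the highest control level per kilobase and a well known heat shock protein, measured 201.3, 187.0, 185.2 and 176.0 CPM in control and 161.4, 184.6, 166.1 and 153.9 CPM in NaCl libraries. The groups overlapped through NaCl replicate 6, and the fall of 11.1% (log2 fold change -0.17, SE 0.054, adjusted p = 0.0252) was not stable. The call was lost without control replicate 1 or 2 or NaCl replicate 5, 7 or 8 (adjusted p = 0.054 to 0.0659), and with the linear library number the sign turned (0.03, adjusted p = 0.855). A pseudogene and a gene model with near-identical sequence together share 51.8% of its transcript length. Hspb6, or HSP20, measured 12.9, 13.2, 13.2 and 12.5 CPM in control and 16.99, 14.8, 13.8 and 13.9 CPM in NaCl libraries. It was higher in all NaCl libraries, but it was not called (log2 fold change 0.20, adjusted p = 0.0611). It was called with DESeq2 (adjusted p = 0.0437) and with the library number centred within its group (0.0301) or linear (0.42, 0.0412).

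The levels of the small HSPs relative to each other shifted. Per kilobase of exon, Cryab stood at 0.414 ± 0.0278 of Hspb1 in control libraries and at 1.02 ± 0.0939 in NaCl libraries (SD, n = 4 each), where it was above Hspb1 in replicates 5 and 8 and below it in replicates 6 and 7. This order depends on the annotated exon lengths (1479 bases for Cryab, 1031 for Hspb1). By CPM, Cryab was above Hspb1 in every NaCl library (266.2, 246.3, 234.0 and 228.6 against 161.4, 184.6, 166.1 and 153.9). Against Hspb8, Cryab per kilobase went from 2.21 ± 0.308 to 8.97 ± 0.588 (SD, n = 4 each). The summed level of the 6 genes was 399.7 ± 15.95 CPM in control libraries and 481.5 ± 25.8 CPM in NaCl libraries.

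**Figure D2:**
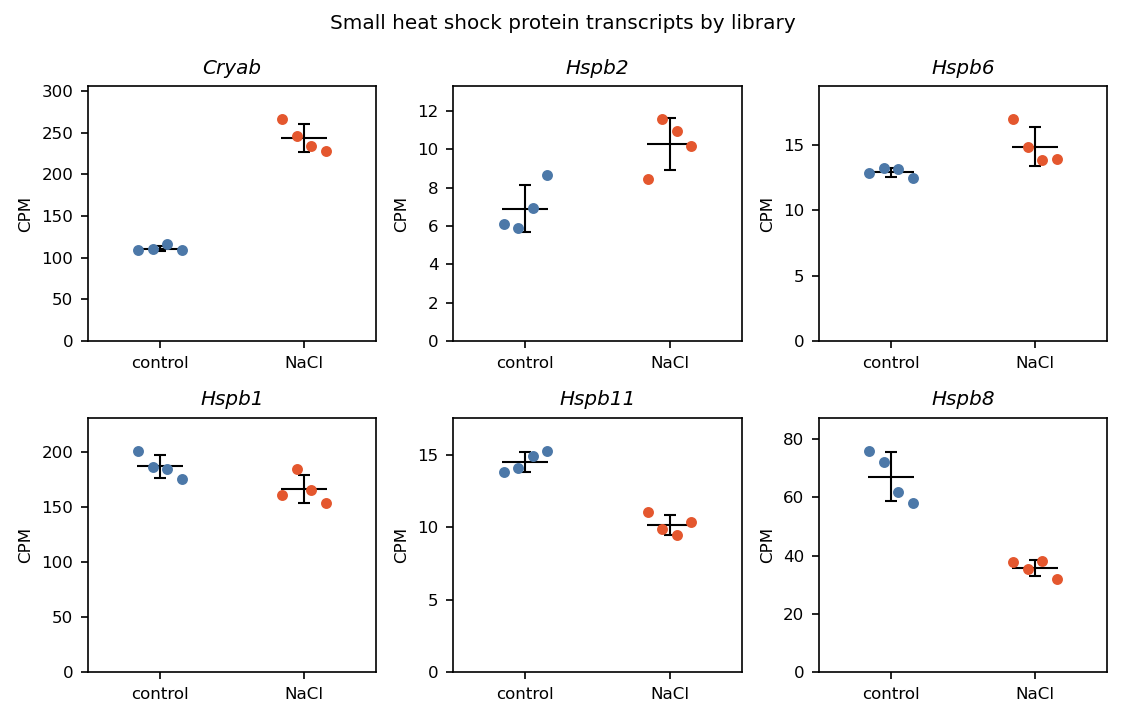
CPM of the 6 small HSP genes in each of the 4 control (blue) and 4 NaCl (orange) libraries, from replicate 1 to 8 left to right; horizontal lines are means and bars SD, and every vertical axis starts at 0. Cryab separates upward (228.6 to 266.2 against 108.6 to 115.8 CPM), Hspb8 and Hspb11 separate downward, and Hspb1 and Hspb2 overlap.

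The mitochondrial chaperonin fell as a pair. Hspd1 encodes HSP60, the folding chamber, and Hspe1 encodes HSP10, its lid, and the genes lie head to head on chromosome 1 (GRCm38, GENCODE M21; Hspd1 55077835 to 55088243, minus strand; Hspe1 55088132 to 55091307, plus strand). Hspd1 measured 525.5, 500.9, 448.2 and 434.8 CPM in control and 367.8, 352.9, 342.6 and 335.7 CPM in NaCl libraries. Hspe1 measured 96.4, 101.9, 90.2 and 85.9 CPM in control and 70.5, 62.9, 71.1 and 64.0 CPM in NaCl libraries. Neither gene overlapped between the groups: Hspd1 fell by 26.7% (log2 fold change -0.45, SE 0.056, adjusted p = 4.29e-05) and Hspe1 fell by 28.3% (-0.48, SE 0.056, adjusted p = 8.47e-06).

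The ratio of Hspd1 to Hspe1 per kilobase of exon was 2.85 ± 0.135 in control libraries and 2.91 ± 0.18 in NaCl libraries (SD, n = 4 each), a difference smaller than the spread. With the linear library number both calls held at smaller size, Hspd1 at -0.16 (adjusted p = 0.0364) and Hspe1 at -0.29 (adjusted p = 0.0146). The 2 genes overlap by 112 bases on opposite strands, and a pseudogene shares 71.1% of the Hspd1 transcript length.

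CCT is the cytosolic chaperonin, a double ring built from 8 different subunits that folds actin and tubulin. All 8 (Tcp1, Cct2, Cct3, Cct4, Cct5, Cct6a, Cct7 and Cct8) fell, and for none did the groups overlap. These shares of 100% stand beside 17.2% of all genes tested called lower and 33.4% without overlap. As a percent of its own control mean, a subunit stood between 93.1 and 107.4 in the control libraries and between 79.0 and 93.2 in the NaCl libraries. The steepest fall was that of Cct6a, which measured 346.9, 336.5, 303.0 and 316.2 CPM in control and 270.8, 260.6, 263.4 and 257.2 CPM in NaCl libraries (log2 fold change -0.31, SE 0.040, adjusted p = 1.83e-05).

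The mildest fall was that of Cct7, which measured 425.2, 420.3, 397.4 and 396.4 CPM in control and 377.2, 377.7, 373.0 and 371.8 CPM in NaCl libraries (-0.13, SE 0.033, adjusted p = 0.00629). Between them lay Cct5 (-0.25), Cct4 (-0.24), Tcp1 (-0.22), Cct8 (-0.21), Cct2 (-0.21) and Cct3 (-0.17), with adjusted p from 1.51e-05 for Cct5 to 0.00398 for Cct3. The summed level of the 8 subunits was 3029 ± 103 CPM in control libraries and 2610 ± 25.2 CPM in NaCl libraries (SD, n = 4 each).

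The subunits kept their rank only when levels were divided by exon length, taken as the union of all annotated exons. That length is 2557 bases for Cct2, 2766 for Cct5 and 6778 for Cct7, so the order depends on the annotation. By CPM, Cct5 and Cct7 were at 421.3 and 409.8 in control and at 354.4 and 374.9 in NaCl libraries. Per kilobase of exon the order from high to low was Cct2, Cct5, Cct8, Tcp1, Cct6a, Cct4, Cct7 and Cct3 in both groups, from 188.1 down to 50.04 CPM per kilobase in control and from 162.7 down to 44.6 in NaCl libraries. Neighbours such as Tcp1 (92.6 ± 2.17) and Cct6a (90.0 ± 5.45 CPM per kilobase, SD, n = 4 each, control) did not differ beyond their spread. The calls of all 8 held under every other scaling, filter and tool tried and without any single library. With the linear library number 4 remained called: Cct5 (-0.19, adjusted p = 0.00881), Cct4 (-0.19, 0.0131), Tcp1 (-0.18, 0.0121) and Cct2 (-0.15, 0.027). In that fit Cct6a was at -0.15 (adjusted p = 0.0544), Cct8 at -0.07 (0.412), Cct7 at -0.03 (0.711), and Cct3 turned to 0.0055 (0.963).

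Cct6b, the testis-type copy of Cct6a, is the ninth gene of the family in the table and was nearly silent. Its counts were 4, 14, 2 and 10 in the control group and 6, 18, 14 and 20 in the NaCl group, and the difference was not called (log2 fold change 1.02, SE 0.542, adjusted p = 0.161). The call for Cct6a also carries a limit, since 18.4% of its transcript length is shared with Psph, an overlapping gene on the opposite strand.

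**Figure D3:**
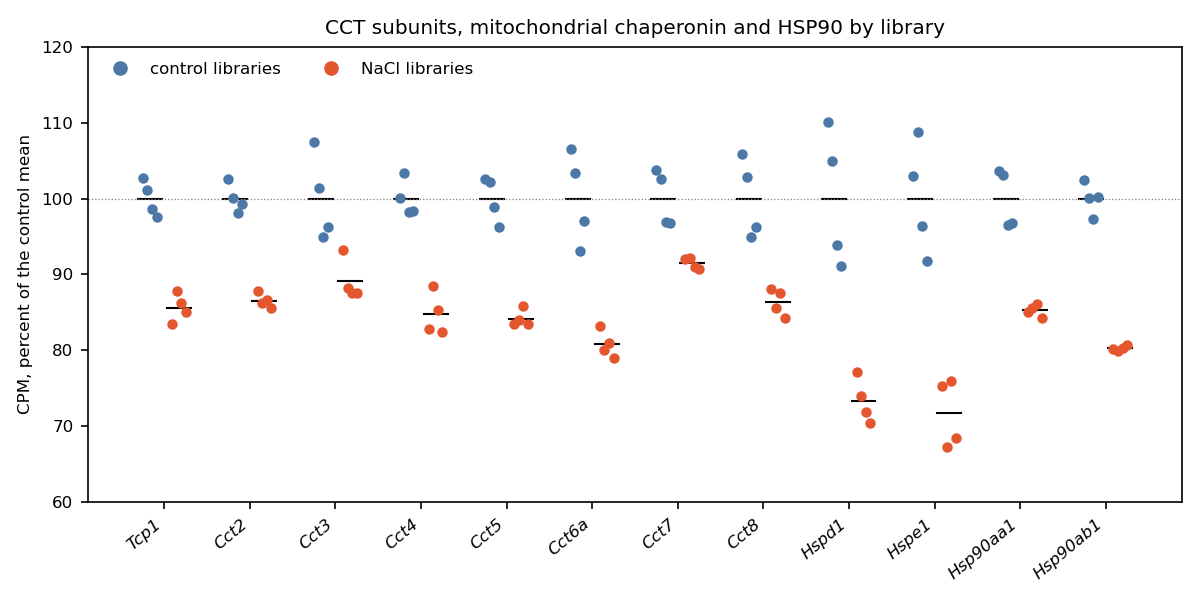
CPM of 8 CCT subunits, the mitochondrial chaperonin pair and HSP90 genes in each library, as a percent of that gene's control mean (vertical axis from 60 to 120); points are 4 control (blue) and 4 NaCl (orange) libraries, and black lines are group means. All NaCl points lie below all control points of the same gene, between 79.0 and 93.2 percent for the CCT subunits.

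Prefoldin is the holdase that hands nascent chains to CCT. Of its 5 Pfdn genes, 1 rose (20%, near the 16.9% of all genes tested) and 1 fell (20%, near the 17.2%). Pfdn2 rose: it measured 73.6, 75.7, 73.3 and 68.7 CPM in control and 101.0, 86.0, 89.5 and 84.3 CPM in NaCl libraries, with no overlap (log2 fold change 0.31, SE 0.053, adjusted p = 3.01e-04). The call held in all 15 alternative fits, with log2 fold changes from 0.25 to 0.52, the highest with the linear library number. Klhdc9, a gene on the opposite strand, shares 30.8% of the Pfdn2 transcript length.

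Pfdn5 fell, from 140.7 ± 4.54 to 128.5 ± 4.66 CPM (SD, n = 4 each), with a log2 fold change of -0.13 (adjusted p = 0.0122). Without NaCl replicate 6 its adjusted p was 0.0528, and with the linear library number it came to -0.25 (adjusted p = 0.00317). Pfdn6 had -0.12 and overlapped between the groups (adjusted p = 0.056; called at 0.0228 with the library number centred within its group, 0.0432 with DESeq2 and 0.0296 without control replicate 3). Pfdn1 had -0.04 (adjusted p = 0.54) and Pfdn4 had 0.07 (adjusted p = 0.302). Vbp1, the gene of the remaining prefoldin subunit, was at 65.9 ± 3.71 CPM in control libraries and 62.9 ± 4.59 CPM in NaCl libraries (SD, n = 4 each) and was not called (-0.07, adjusted p = 0.365). Summed over the 5 Pfdn genes, without Vbp1, the level was 382.8 ± 6.96 CPM in control and 382.9 ± 8.48 CPM in NaCl libraries (SD, n = 4 each).

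Set side by side, the subfamily medians of the log2 fold change were -0.46 for the mitochondrial chaperonin (2 genes), -0.27 for HSP90 (2), -0.21 for CCT (9), -0.07 for class A (4), 0.01 for class B (8) and -0.01 for class C J proteins (24), -0.04 for prefoldin (5), 0.02 for small HSPs (6) and 0.06 for BAG (6). The median of all genes tested was 0.00287. Summed over members, HSP90 measured 4914, 4822, 4644 and 4755 CPM in control and 3891, 3892, 3908 and 3903 CPM in NaCl libraries. The NaCl libraries lay close together and below every control library (4784 ± 114 to 3898 ± 8.39 CPM, SD, n = 4 each). The summed level of the mitochondrial chaperonin went from 570.9 ± 49.0 to 416.8 ± 15.9 CPM and that of BAG from 616.8 ± 5.81 to 649.5 ± 3.45 CPM (SD, n = 4 each).

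**Figure D4:**
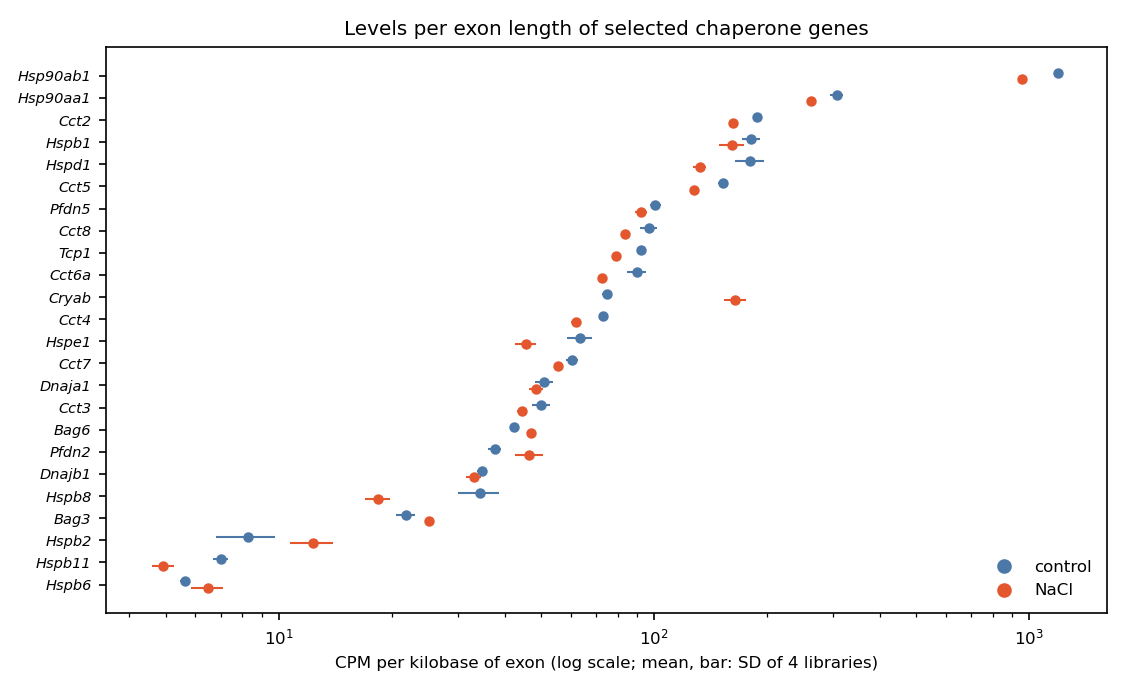
Mean CPM per kilobase of exon (log axis; bars are SD of 4 libraries) of 24 chaperone genes in control (blue) and NaCl (orange) cells, sorted by the control level. Hsp90ab1 is highest in both groups (1193 and 957.4), and Cryab moves from 74.99 to 164.8, beside 162.7 for Cct2 in NaCl cells.

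The partners and clients of these chaperones were taken from lists of known genes. In the HSP70 family and its exchange factors, 7 of 17 genes rose (41.2%, beside 16.9% of all genes tested) and 5 fell (29.4%, beside 17.2%). The inducible Hspa1b rose from 29.96 ± 4.22 to 100.9 ± 8.74 CPM (log2 fold change 1.75, adjusted p = 5.73e-07), Hspa1a from 7.004 ± 1.04 to 10.6 ± 1.56 CPM (0.59, adjusted p = 0.00146), and both encode near-identical proteins, so the split of reads between them is uncertain. The HSP110 genes Hspa4l (1.12, adjusted p = 5.58e-13) and Hsph1 (0.88, adjusted p = 6.51e-09), exchange factors for HSP70, rose too. Hspa8, the constitutive HSC70 and main partner of the J proteins, fell from 1746 ± 27.0 to 1569 ± 36.6 CPM (-0.15, adjusted p = 9.18e-04; SD, n = 4 each throughout).

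Of 19 HSP90 paralogues and cochaperones, 3 rose (Stub1, Unc45a and Ppp5c; 15.8%, near the 16.9% of all genes) and 7 fell (36.8%, beside 17.2%), with a median of -0.09. The endoplasmic reticulum paralogue Hsp90b1 had -0.35 (adjusted p = 5.19e-07), beside -0.32 for Hsp90ab1, and the mitochondrial paralogue Trap1 had -0.12 (adjusted p = 0.0105). Among 4 heat shock factor genes, Hsf1 was called higher (0.12, adjusted p = 0.0487). The call was lost in 8 of 15 alternative fits, among them those without control replicate 2, 3 or 4 or NaCl replicate 5, 6 or 7 (adjusted p up to 0.165). Its log2 fold change over the 15 fits ran from 0.09 to 0.29, the highest with the linear library number (adjusted p = 0.0059). Hsf2, Hsf4 and Hsbp1 were not called.

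Actin and tubulin are the main clients of CCT and prefoldin. Of 10 of their genes, 8 fell (80%, beside 17.2% of all genes) and none rose, with a median of -0.22 beside -0.21 for CCT. The beta-tubulin Tubb6 fell furthest, from 137.4 ± 10.2 to 90.4 ± 3.48 CPM (SD, n = 4 each; -0.60, adjusted p = 1.16e-07), and Actb (-0.07, adjusted p = 0.129) and Tubb2a (-0.12, adjusted p = 0.0912) were not called. Of 12 chaperonin and prefoldin partners, which include the tubulin-folding cofactors, 2 fell (Tbce and Pdcl; 16.7%, near the 17.2% of all genes) and 10 were not called. Of 12 mitochondrial quality control genes, 2 fell (Afg3l2 and Phb2), 1 rose (Spg7) and 9 were not called (25% called, beside 34.1% of all genes), with a median of -0.05.

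**Figure D5:**
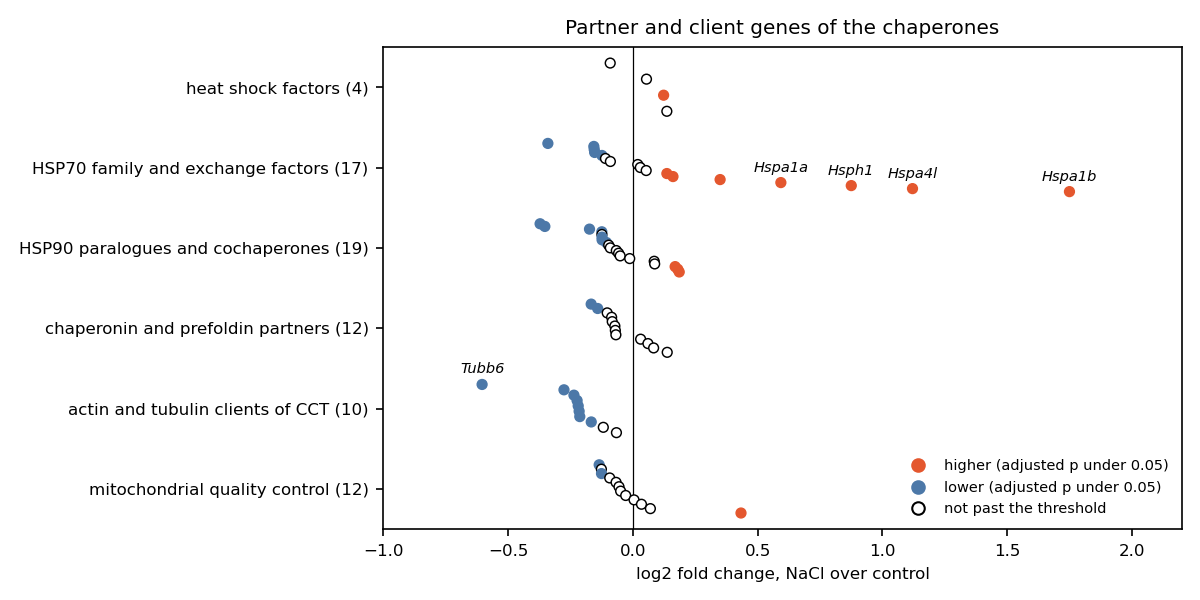
Log2 fold change (NaCl over control) of the genes in 6 lists of chaperone partners and clients, with the number of genes in brackets; each point is a gene, orange or blue where it passed an adjusted p of 0.05. The HSP70 list spreads from -0.34 to 1.75, while 8 of 10 actin and tubulin genes are called lower.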

How the data were processed

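RNA was extracted with Trizol, per the labels' protocols. The submitters' processing notes name Trim Galore 0.6.7, STAR, DESeq2 1.34.0 and the build mm10, with no roles or order; the counting program, annotation and strandedness are not given in the sources used here. The authors deposited raw counts per gene, which were used here; their deposited normalized table was not used. Samples were grouped by their labels (4 control, 4 NaCl).

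Counts were fitted in R 4.3.3 with edgeR 4.0.16 (filterByExpr at a minimum count of 10, TMM, robust quasi-likelihood, group as the only term) over all genes, and p-values were adjusted over 14024 genes and called under 0.05. CPM used TMM-scaled totals. The code was tested on simulated data. Replicate libraries differed by more than counting noise (chi-square per degree of freedom 5.24 to 23.0 over 12 pairs), so none was counted as a copy. Lengths, positions and shared sequence (blastn 2.17.0, at least 75 bases at 98% identity) came from GENCODE M21, in which all 67 genes were found, and promoter windows from RefSeq.

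Named genes were all HSP90, small HSP, chaperonin, BAG, prefoldin and Chordc1 members, up to 5 called J proteins per direction and class, Dnaja1 and Dnajb1, and, of the 6 lists of partners and clients, called genes with an absolute log2 fold change of at least 0.5 plus Hsf1, Hspa8, Hspa1a, Hspa1b and Hspa4l; other genes named in passing were chosen after their values were seen. The members and lists were chosen with earlier results of these data known. Alternatives were median-of-ratios and upper-quartile factors, no filter, at least 10 counts in every library, DESeq2 1.42.0, the library number as a covariate (centred within group, or linear from 1 to 8), and leaving out each library; counts by subfamily and the median of all genes under these were added after seeing the data.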

Additional observations from a re-analysis of the deposited data

Results flagged for a closer look

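Of 84 sets of 4 library values examined for a library standing far from the other 3 (Dixon's test at 95%), 6 were flagged, and chance alone would flag about 4.2. Cryab in control replicate 3 was at 115.8 CPM, against 108.6 to 109.8 CPM in the other control libraries. For Bag4, control replicate 2 was at 38.17 CPM, against 35.28 to 35.34 CPM. Dnajc19 in control replicate 4 was at 14.57 CPM, against 17 to 17.2 CPM. In NaCl replicate 5, Cct3 was at 297.1 CPM, against 278.8 to 281.0 CPM in the other NaCl libraries, and Bag3 was at 67.24 CPM, against 63.47 to 64.05 CPM. Dnajc2 in NaCl replicate 8 was at 74.72 CPM, against 79.48 to 79.69 CPM.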

How the results depend on the processing

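No paired analysis was possible because the labels number the libraries 1 to 8 and the groups share no number. The counts over all members were within 1.5 times the reported ones in every alternative: 8 to 13 called higher and 17 to 25 called lower, and the 2 HSP90 and 2 mitochondrial chaperonin genes were called lower in each. The number of all genes called varied as well. It was 4789 in the reported fit, 5136 with DESeq2 and 6030 with the centred library number, the fit that gave 13 and 25 members. With a linear library number, CCT genes called lower were 4 and DNAJC genes 3, and the median log2 fold changes were 0.071 for DNAJA, 0.10 for DNAJB, -0.22 for HSP90, -0.23 for the mitochondrial chaperonin, -0.15 for CCT, 0.10 for BAG and 0.21 for Chordc1. In that fit 3 called genes changed sign, Hspb1 (0.027), Cct3 (0.0055) and Dnajc2 (0.0034), each with no call. All control numbers lie below all NaCl numbers by design. The linear number therefore carries a trend within the groups over to the group difference, while the centred number does not. With the centred number, 8 CCT and 6 DNAJC genes were called lower. Leaving out single libraries gave 2 to 5 DNAJC genes called lower. Over the 30 called members named, 413 of 450 refits kept direction and call, 34 lost the call (11 of them with the linear library number) and 3 changed sign; of 179 refits of uncalled members, 14 gave a call, and 5 sign changes without a call in either fit were not counted as changes. Cct6b was not in the fit that required 10 counts in every library. Depth limits Cct6b and Dnajc22, the 2 members with under 100 counts in some library.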
